A study of Mus musculus with 6 samples.

Results

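The 10 genes described here encode the kidney cadherins Cdh1, Cdh2, Cdh6 and Cdh16, the mesenchymal proteins vimentin (Vim) and fibronectin (Fn1), and the transcription factors Snai1, Snai2, Twist1 and Zeb1. They were chosen by name as genes of cell adhesion and of the epithelial-mesenchymal transition, with earlier results of these data known. Counts set beside those of all coding genes therefore describe these genes and are no test. The 10 genes are part of the 21757 protein-coding genes of the GENCODE M39 annotation on GRCm39. Accessibility was measured by ATAC-seq, in which a transposase cuts open chromatin, on nuclei of kidney cortex from WT mice and from mice whose tubule cells lack Acly, the gene of ATP citrate lyase (Acly cKO). Mice of the latter group carried Acly fl/fl and the Ksp-Cre transgene, and by the study's methods the WT mice were littermates with Acly fl/fl and no Cre. Of both genotypes the labels give the treatment as Control, and the general statement on animals gives an age of 6 to 8 weeks without naming the mice used for ATAC-seq. Both genotypes had 3 libraries, while the study design states 5 WT and 3 Acly cKO libraries. The methods add that some WT datasets had been deposited earlier, without saying whether those mice were Acly fl/fl littermates. Whether the further WT libraries are part of the pooled values below is not stated in the sources used here. The deposited peak call pools all libraries and has no column for a single one, so the depth of each is unknown, replicate error could not be given and the genotypes were not compared. No batch holds both genotypes (1 and 2 for WT, 4 and 5 for Acly cKO), so genotype and batch cannot be told apart.

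Classical cadherins hold neighbouring cells together through their extracellular repeats and bind catenins inside the cell. In the epithelial-mesenchymal transition, an epithelial cell lowers Cdh1 and other junction proteins and gains vimentin, fibronectin and often Cdh2, and in the kidney this programme is studied in tubule cells during injury and fibrosis. Snai1, Snai2 and Zeb1 are zinc finger proteins that repress Cdh1 through the E-box CACCTG, and Twist1 is a basic helix-loop-helix protein that binds E-boxes of the general form CANNTG. Cdh16, or kidney-specific cadherin, is a marker of tubule epithelium, and its promoter drives the Ksp-Cre transgene, which recombines in proximal tubules, distal tubules and collecting ducts.

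An accessible interval was assigned to a gene when it overlapped the stretch from 3 kb upstream of the gene start to the gene end. Each interval carries the fold enrichment of reads over background at its highest summit, the position of its strongest signal. In all, 149 of the 279569 intervals of the pooled list (0.0533%) belonged to the 10 genes. Every one of the 10 genes had an interval within 1 kb of its start, against 74.3% of all coding genes, and in every one this start interval was the strongest interval of the gene, as in 75.7% of the 16176 coding genes with a start interval. In all 10 genes it reached at least 10-fold, against 57.4% of all coding genes. Cdh16 stood far above the others at 162-fold, which was the highest value at the start of any of the 21757 coding genes. The other 9 genes lay between 11.7-fold at Twist1 and 40.6-fold at Snai1.

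The 200 bases before the start of Cdh1, Cdh16, Snai1 and Twist1 are shown because they hold the repressor E-boxes of Cdh1 and Snai1, the strongest start of all coding genes and the weakest start of the 10. They were read from GRCm39 on the strand of the gene, 5′ to 3′, and end at the base before the gene start. They lie at chr8:107329741-107329940 on the plus strand for Cdh1, chr8:105351029-105351228 on the minus strand for Cdh16, chr2:167379913-167380112 on the plus strand for Snai1 and chr12:34007445-34007644 on the plus strand for Twist1. Capitals mark, on either strand, the E-box CACCTG, the CCAAT box, the TATA box TATAAA and the GC box GGGCGG.
Cdh1: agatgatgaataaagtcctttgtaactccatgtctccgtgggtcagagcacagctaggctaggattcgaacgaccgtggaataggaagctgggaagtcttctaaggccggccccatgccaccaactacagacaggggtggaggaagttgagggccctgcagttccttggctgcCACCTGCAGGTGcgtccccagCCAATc
Cdh16: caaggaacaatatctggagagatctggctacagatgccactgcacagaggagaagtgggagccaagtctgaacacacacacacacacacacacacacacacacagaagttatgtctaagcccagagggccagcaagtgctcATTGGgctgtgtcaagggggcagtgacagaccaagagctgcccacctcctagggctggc
Snai1: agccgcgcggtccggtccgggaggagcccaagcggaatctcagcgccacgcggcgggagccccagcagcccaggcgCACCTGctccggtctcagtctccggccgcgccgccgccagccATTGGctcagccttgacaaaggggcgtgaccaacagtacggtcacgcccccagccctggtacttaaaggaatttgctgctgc
Twist1: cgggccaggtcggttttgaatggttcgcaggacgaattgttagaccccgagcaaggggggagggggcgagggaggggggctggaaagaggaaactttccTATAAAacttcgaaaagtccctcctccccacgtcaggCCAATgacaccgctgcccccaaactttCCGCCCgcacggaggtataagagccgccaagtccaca

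Upstream of Cdh1 a pair of CACCTG matches stood back to back on opposite strands, from 27 to 16 bp before the gene start, and formed the palindrome CACCTGCAGGTG. This palindrome is the E-pal element through which the SNAI and ZEB repressors are known to act. Snai1 had a single CACCTG from 124 to 119 bp before its start and a CCAAT box on the reverse strand from 82 to 78 bp. Upstream of Cdh16 the marked letters held 1 CCAAT box, on the reverse strand from 59 to 55 bp, and a run of 16 CA repeats stood from 128 to 97 bp. Twist1 had a TATAAA from 101 to 96 bp, a CCAAT box from 64 to 60 bp and a GC box from 37 to 32 bp before its start. A match to these letters describes the sequence and does not show that a factor was bound.

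Cdh16 lies on chromosome 8 from 105328543 to 105351028 on the minus strand (ENSMUSG00000031881.8). Its start interval spanned 105341744 to 105353756, or 12013 bp, and held 38 summits. The highest of them, 17 bp upstream of the gene start, was enriched 162-fold, with a q-value of 4483 on the -log10 scale. This summit stood alone, since its nearest neighbours, 1400 bp upstream and 906 bp downstream of the start, reached 4.45-fold and 8.64-fold. The summit was thus 18.8 times the next highest of its interval, against a median of 2.02 over the 14554 coding genes with more than 1 summit in their start interval. The next coding genes in order of start fold enrichment were Hmgb2 at 122, Zfp654 at 121, an unnamed gene (ENSMUSG00000144225) at 119, and M6pr and Pja2, also at 119. The interval also held the annotated start of the non-coding gene Gm33023. Non-coding starts likewise lay in the start intervals of Cdh2, Vim, Snai1, Snai2, Twist1 and Zeb1. No start interval of the 10 genes held the start of another coding gene. The Ksp-Cre transgene of the Acly cKO mice carries promoter sequence of Cdh16, so reads from the transgene and from the gene's own promoter cannot be told apart in the pooled list.

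The rest of Cdh16 was also covered by intervals, though much of it at low fold enrichment. Intervals covered 98.0% of its region, and 98.6% of coding genes had a lower share. The summits from 2246 bp to 15614 bp into the gene reached only 1.96-fold to 6.02-fold. Besides the start interval the gene had 2 others. The first spanned 105326926 to 105341370 (14445 bp, 41 summits), and its highest summit, 21481 bp into the gene and past the end of the canonical transcript, reached 39.9-fold. The second spanned 105353898 to 105360383 and reached 20.2-fold, but its highest summit lay 7087 bp upstream of Cdh16 and 125 bp from the start of Rrad, a small GTPase gene, so it belongs to Cdh16 only by the edge of the interval.

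**Figure D1:**
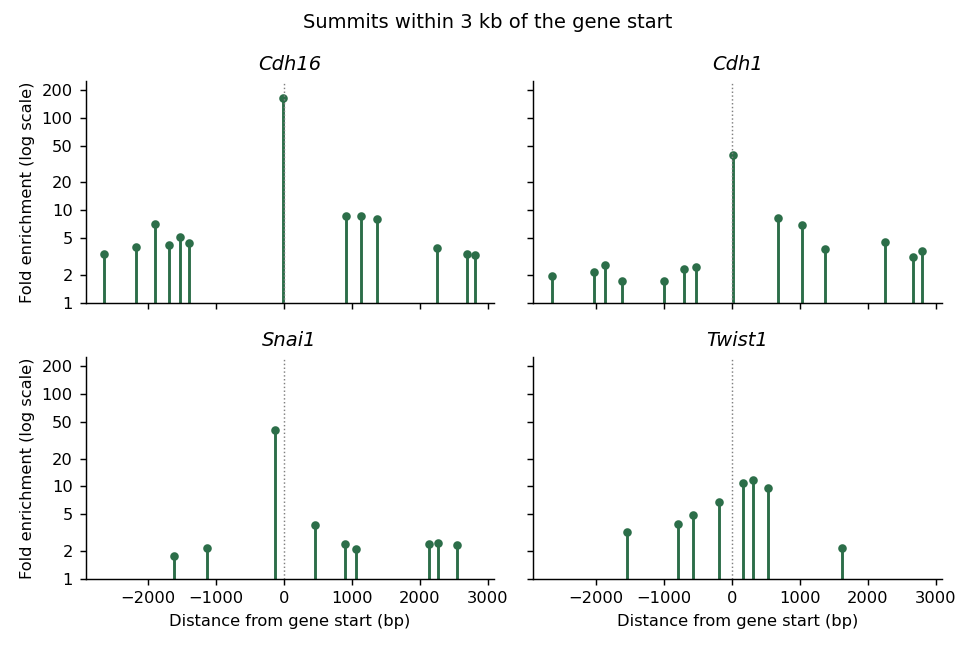
Fold enrichment (log scale) of each summit within 3 kb of the gene start against its distance from the start in bp, for Cdh16, Cdh1, Snai1 and Twist1; the dotted line is the gene start. Cdh16 has a lone summit of 162-fold beside neighbours of at most 8.64-fold, whereas the highest summits of Twist1 lie between 9.49-fold and 11.7-fold.

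Cdh1, the E-cadherin of epithelial junctions, lies on chromosome 8 from 107329941 to 107396880 on the plus strand (ENSMUSG00000000303.15). It had 24 intervals, which covered 61.0% of its region. The start interval, 107328899 to 107331447, reached 39.9-fold at a summit 19 bp into the gene, close to the E-boxes shown above, and its next summit reached 8.31-fold. The strongest of the other intervals lay in intron 2. An interval of 10613 bp at 107337014 to 107347626 held 30 summits and reached 24.8-fold at 16443 bp from the start. Those at 107347872 to 107352276 and at 107357946 to 107362859 reached 15.9-fold and 12.3-fold. None of these 3 summits lay within 1 kb of an annotated transcript start of Cdh1, and the nearest coding-gene start to each was that of Cdh1 itself.

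Cdh6, a cadherin of the developing nephron and of proximal tubule, lies on chromosome 15 from 13028787 to 13174004 on the minus strand. With 44 intervals it had the most of the 10 genes, but 32 of them were under 3-fold. Its start interval, 13170558 to 13175466, reached 34.8-fold at a summit 228 bp into the gene. The start of the canonical transcript lay 243 bp into the gene, so the summit stood just before it. An intron 1 interval at 13165504 to 13170188, adjoining the start interval, reached 13.3-fold. Farther in, intervals of intron 2 at 13088265 to 13090929 and of intron 1 at 13134220 to 13135587 reached 13.7-fold and 10.0-fold.

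Cdh2, the N-cadherin of mesenchymal and neural cells that proximal tubule cells also carry, lies on chromosome 18 from 16700793 to 16942381 on the minus strand. Its 40 intervals covered 9.31% of the region, and 28 of them were under 3-fold. The start interval, 16939629 to 16943247, reached 29.1-fold at 18 bp upstream of the start. A pair of intron 2 intervals, 16871803 to 16874685 and 16805806 to 16807778, reached 15.3-fold and 14.5-fold at 68240 bp and 135451 bp from the start. The strongest interval of intron 1, 11777 bp from the start, reached 9.10-fold.

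The genes of the mesenchymal proteins had 1 interval (Vim) and 10 intervals (Fn1), against a median of 4 over all coding genes. Per 10 kb of region, Vim had 0.840 and Fn1 1.41, and 30.2% and 41.5% of coding genes had fewer. The interval of Vim covered 38.3% of its region, and 71.5% of coding genes had a lower share. Vim, the intermediate filament gene, lies on chromosome 2 from 13578738 to 13587639 on the plus strand and had a single interval, from 13576887 to 13581446, with 14 summits. Its highest summit, 283 bp upstream of the start, reached 28.0-fold, and the next reached 22.1-fold. Fn1, the gene of the matrix protein fibronectin, lies on chromosome 1 from 71624673 to 71692419 on the minus strand. Its start interval, the weakest of the 10 genes after that of Twist1, was the only one of its 10 intervals at 10-fold or more. Covered sequence made up 7.80% of the Fn1 region, the lowest share of the 10 genes, although Fn1 is about as long as Cdh1. Apart from the start interval, the strongest intervals of Fn1 had their highest summits in intron 29 and intron 13. These reached 9.62-fold, at 46143 bp from the start, and 6.15-fold. Both of these intervals also touched an exon.

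Of the transcription factor genes, Snai1 on chromosome 2 (167380113 to 167384734, plus strand) had the strongest start. Its start interval, 167378870 to 167381438, reached 40.6-fold at a summit 133 bp upstream, 10.5 times the next highest summit of the interval. Its CACCTG lay within 50 bp of that summit. Snai2 on chromosome 16 (14523425 to 14527252, plus strand) reached 31.2-fold at a summit in exon 1, 261 bp into the gene, with a second summit of 27.6-fold 7 bp from the start. Twist1 on chromosome 12 (34007645 to 34009828, plus strand) had the weakest start of the 10 genes, and its summit of 11.7-fold lay 310 bp into exon 1, beside others of 10.9-fold and 9.49-fold. The remaining intervals of these 3 genes were weak, with at most 2.68-fold for Snai1, 2.16-fold for Snai2 and 3.21-fold for Twist1.

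Zeb1 on chromosome 18 (5591851 to 5775467, plus strand) is much longer and had 19 intervals. Its start interval, 5590500 to 5594050, reached 24.4-fold at 144 bp upstream. A strong interval lay far inside the gene, in intron 2, at 5739684 to 5741649, where the summit 148700 bp from the start reached 16.2-fold. A neighbour in intron 2, 5742051 to 5743049, reached 7.07-fold, and an interval with its summit in exon 6 reached 6.81-fold. No annotated transcript start of Zeb1 lay within 1 kb of these 3 summits.

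**Figure D2:**
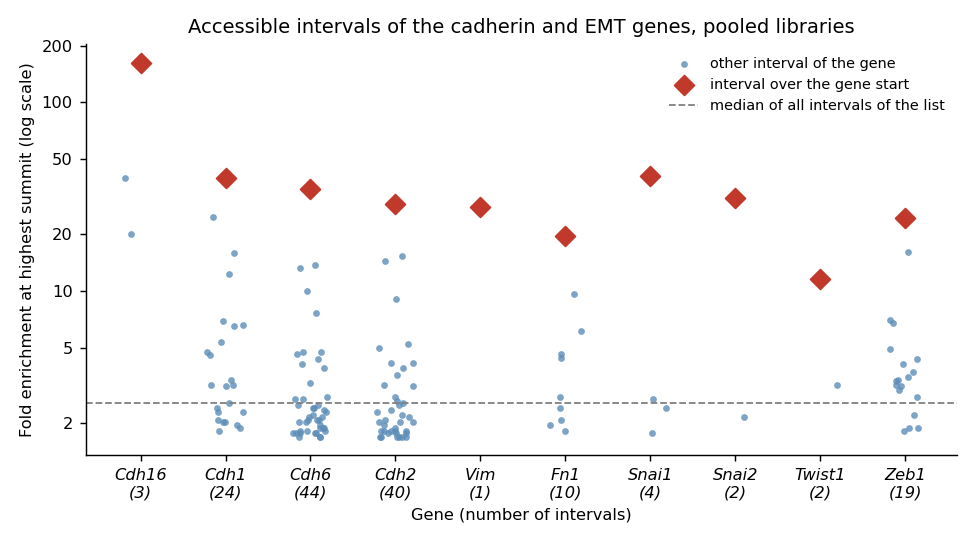
Fold enrichment at the highest summit (log scale) of each interval of each gene, with the interval over the gene start as a diamond, the others as points, and the number of intervals under each name. The start interval is the highest of every gene, and most other intervals lie near the median of all intervals, 2.55-fold.

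The 149 intervals as a set resembled the list as a whole in strength. Their median fold enrichment was 2.55, as it was over all 279569 intervals. At least 10-fold was reached by 21 of them (14.1%), against 12.3% of all intervals, and 84 (56.4%) were under 3-fold, against 59.0%. Of the 21, 4 belonged to Cdh1, 4 to Cdh6, 3 to Cdh2, 3 to Cdh16 and 2 to Zeb1, and the other genes had 1 each. The 3 of Cdh16 include the interval of 20.2-fold whose highest summit lies near the start of Rrad. By position, 113 of the 149 (75.8%, Wilson 95% interval 68.4% to 82.0%) lay in introns of the canonical transcript with no exon touched, against 67.9% over all coding genes. The Wilson interval covers counting error only, and neighbouring intervals of 1 gene are not independent, so it is no test of the difference. The genes Cdh6, Cdh2 and Cdh1 gave 38, 36 and 19 of the 113, whereas Cdh16, Vim, Snai2 and Twist1 gave none. The 10 start intervals had a median of 30.1-fold, while the median of the intron intervals was 2.42-fold. The share in introns fell to 54.5% when only intervals of at least 5-fold were counted and to 42.1% among the 27956 strongest intervals of the list.

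The start of Cdh16 also differed from the other 9 in its base composition. CpG content was expressed as the ratio of observed to expected CpG dinucleotides in the 500 bp on either side of the gene start, where CpG islands have high values. The ratio was 0.171 at Cdh16 and lay between 0.529 at Vim and 0.942 at Zeb1 in the other genes. Among all coding genes, 97.9% of the 10963 with a ratio of at least 0.5 had a start interval, with a median of 37.2-fold, and 88.6% reached 10-fold. Of the 10794 genes under 0.5, 50.4% had a start interval, with a median of 10.5-fold, and 25.7% reached 10-fold. Of the 9 CpG-rich genes, Snai1 and Cdh1 lay above that median of 37.2-fold and the other 7 below it. Among the CpG-poor genes, Cdh16 at 162-fold, possibly with reads of the Ksp-Cre transgene, was followed by Sertad2 at 115 and Leprot at 109.

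**Figure D3:**
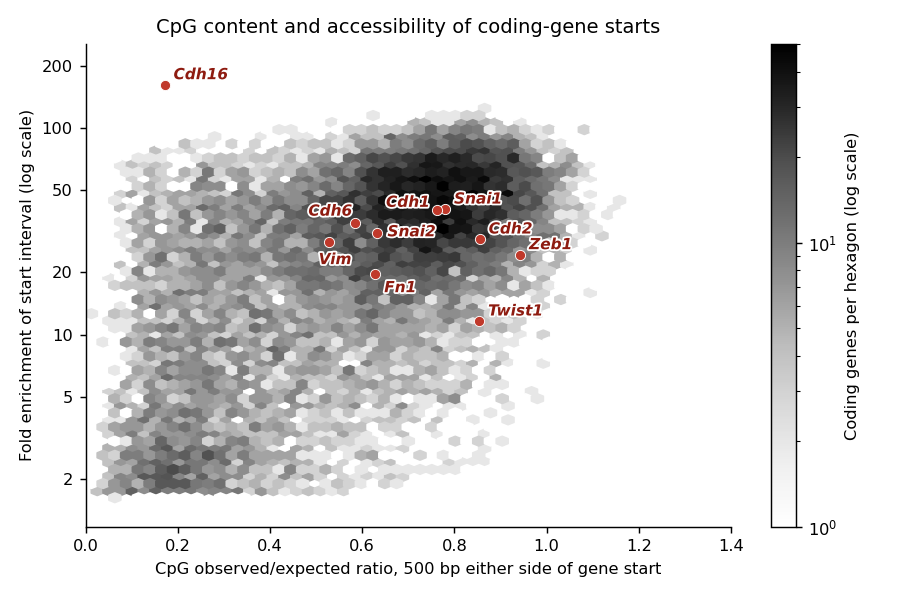
Fold enrichment of the start interval (log scale) against the CpG observed to expected ratio around the gene start; grey hexagons count the coding genes with a start interval and red points are the 10 genes. Cdh16 lies alone at the top left, at a ratio of 0.171 and 162-fold, and the other 9 lie at ratios of 0.529 to 0.942 among the CpG-rich genes. The Cdh16 value may include reads of the Ksp-Cre transgene.

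The letters of transcription factor motifs were counted in 200 bp around the highest summit of the start interval, on both strands, for the 10 genes and for the 16176 coding genes with such an interval. CACCTG was present in 4 genes, Cdh1, Snai1, Snai2 and Zeb1, against 13.6% of the coding genes. In 100 bp around the summit the number was 2, Cdh1 and Snai1. The general E-box CANNTG, which includes every CACCTG, was present in 6 genes, the same 4 with Cdh6 and Cdh16, against 48.6%. The GC box GGGCGG was found in 6 genes, against 56.4%, and CCAAT in 6, against 30.7%. TGACTCA, the AP-1 site, was found in Vim alone, against 3.78%. TATAAA was found in none of the 10 windows, against 3.06%, since the TATAAA of Twist1 lies upstream of its window. With 10 genes chosen by name and with earlier results known, these counts describe the windows and were not tested.

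Related genes were read from lists that complete the same pathways. Of 19 further cadherin genes, 16 had a start interval and 4 reached 10-fold, with a median of 4.52-fold when a missing interval counts as 0. Over all coding genes, 74.3% had a start interval, 57.4% reached 10-fold, and the median counted in this way was 17.5-fold. These 4 were Cdh24 at 46.0-fold, Cdh4 at 26.4, Cdh3 (P-cadherin) at 22.5 and Cdh11 (a cadherin of mesenchymal cells) at 12.4. The lowest were Cdh8 at 1.70, Cdh7 at 2.03 and Cdh9 at 2.62, and Cdh12, Cdh18 and Cdh19 had no start interval. The start of Cdh16, whose value may include transgene reads, was thus 3.53 times that of Cdh24, the highest further cadherin.

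Some start intervals are wide, and their highest summit can lie far from the start, which was not so in the 10 genes, where it was within 310 bp. The count of genes with a summit of at least 10-fold that itself lies within 1 kb of the start is therefore given second. Over all 21757 coding genes the first count was 12485 and the second 11767. With summits within 1 kb alone the medians became 3.01-fold for the catenins and partners, 8.51 for the further factors and 26.1 for the epithelial genes. Those of the further cadherins and mesenchymal genes stayed at 4.52 and 4.32, and the median over all coding genes was 13.8-fold. Of 5 catenins and junction partners, which link cadherins to actin, 2 reached 10-fold and 1 by the second count, with Afdn at 57.9-fold, Ctnnd1 at 12.2, and Ctnnb1, the β-catenin gene, lowest at 2.36. These values belong to the outermost annotated start of each gene. The strongest interval anywhere in the region reached 25.7-fold for Ctnnb1, 69.9 for Jup, 54.9 for Ctnnd1 and 38.6 for Ctnna1. Of 8 further factors of the transition, 4 reached 10-fold and 3 by the second count. These were Tcf3 at 50.5-fold, Snai3 at 23.4 and Zeb2 at 19.5, while the 49.6-fold summit of Tcf4 lay 1061 bp from the start, just outside the window, and its highest within 1 kb was 2.88-fold. Twist2, the paralog of Twist1, was lowest at 2.49-fold, and Klf8 and Prrx1 followed at 7.46-fold and 7.53-fold.

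Of 9 epithelial genes, 8 reached 10-fold by both counts, with a median of 28.4-fold. Over all coding genes the counts were 12485 and 11767 of 21757, with a median of 17.5-fold. Elf3, an epithelial transcription factor, was highest at 64.9-fold but had 11.7-fold within 1 kb. Esrp2, a splicing factor of epithelial cells, reached 50.8-fold and the adhesion gene Epcam 41.6-fold, while Krt18 was lowest at 6.94, followed by Ovol1 at 14.8 and Ovol2 at 18.5. Of 7 mesenchymal genes, 3 reached 10-fold and 2 by the second count, with a median of 4.32-fold. The integrin gene Itga5 reached 18.1-fold and S100a4 17.3, and Tagln reached 13.6-fold at a summit just outside 1 kb, with 4.45 within it. Mmp2 at 2.88-fold, Acta2 at 4.06 and Sparc at 4.32 were the lowest with an interval, and Fap had none. Vim and Fn1, at 28.0-fold and 19.6-fold, were above every gene of the mesenchymal list. The lists are short, and they differed in CpG content. The CpG ratio was under 0.5 at every mesenchymal gene but Itga5 (0.590). Of the epithelial genes only Epcam, Elf3 and Krt8 were under 0.5, and Vim and Fn1 had 0.529 and 0.628. Whether CpG content accounts for the difference in start fold enrichment was not tested.

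**Figure D4:**
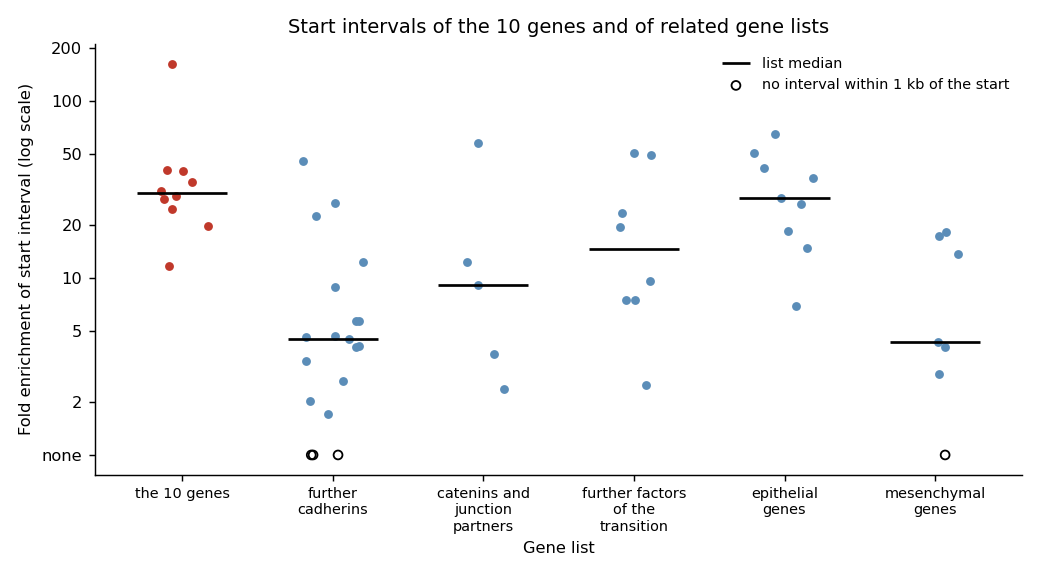
Fold enrichment of the start interval (log scale) for each gene of the 10 and of 5 related lists; black lines are list medians and open circles are genes with no interval within 1 kb of the start. Medians are 30.1-fold for the 10 genes, 4.52 for further cadherins, 9.17 for catenins and partners, 14.5 for further factors, 28.4 for epithelial genes and 4.32 for mesenchymal genes.

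The labelled tissue was checked against marker genes. Start intervals were present at 5 of 5 proximal tubule, 3 of 4 thick limb and distal tubule and 3 of 3 collecting duct markers, with median fold enrichments of 15.1, 8.45 and 22.7. Counting only summits within 1 kb of the start, these medians were 7.40, 6.45 and 11.5. They were also present at 3 of 3 podocyte, 3 of 3 endothelial, 3 of 3 immune and 4 of 4 stromal markers, with medians of 4.52, 2.75, 1.96 and 6.78, and at 2 of 5 genes of other organs. The immune list included Cd74 at 25.0-fold. Of all coding genes, 74.3% had a start interval, with medians of 17.5-fold and, within 1 kb, 13.8-fold. Only the collecting duct median of 22.7 exceeded these, so the markers do not single out the labelled tissue. Bulk nuclei were measured, and which cells gave the signal at Vim, Fn1, Snai1, Snai2, Twist1 and Zeb1 was not tested.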

How the data were processed

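ATAC-seq libraries of kidney cortex were grouped by genotype from their labels. As the methods and the submitters' processing notes state, the authors used fastp for trimming and Bowtie2 2.3.4.3 for alignment to mm39, removed duplicates and reads without a unique position, called peaks with MACS3 3.0.0 and removed blacklisted regions with bedtools 2.29.1. The deposited list gives, per summit, the fold enrichment over background, a linear ratio, and the q-value as -log10, both written by the authors' caller. The methods state an extension of 200 bp, but the narrowest deposited interval is 136 bp, so the settings behind the list may differ from those stated, and summit positions are read with that limit. The deposited summits before filtering were not used. No library has a column, so depth per library is unknown and no test between groups was possible.

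Rows with the same chromosome, start and end formed 1 interval, represented by the summit with the lowest q. Coordinates are GRCm39, written from 1, and gene models are GENCODE M39. An interval belonged to a gene when it overlapped the gene or the 3 kb upstream, and was a start interval within 1 kb of the gene start. Sequences were read from the GRCm39 genome. The named genes are the 10 members and, of each related list, up to 3 with the highest and 3 with the lowest start fold enrichment and those with no interval. The members and the lists were chosen with earlier results of these data known. Of the motifs searched, 1 is not reported here. Other thresholds, windows, regions and annotations were tried. The scripts were tested on simulated data. Computations ran in Python 3.11.15 (pandas 2.3.3, numpy 2.4.6, scipy 1.17.1, matplotlib 3.10.9).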

Additional observations from a re-analysis of the deposited data

How the results depend on the processing

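The number of intervals over the 10 genes depended on the threshold: it was 149 with all intervals, 83 with a q under 1e-05, 33 at 5-fold or more and 19 among the 27956 strongest intervals by q, and 498 when summits were counted. The other 5 alternatives for this number lay between 120 and 170. The share of intervals in introns was 75.8%, and became 83.2% by the highest summit alone, 54.5% at 5-fold or more and 42.1% among the 27956 strongest, which leave fewer intervals or place 1 base each. The number of genes with CACCTG near the summit was 4, and became 2 in 100 bp around the summit, a narrower window. The number of genes with a start interval stayed at 10, or 9 among the 27956 strongest, under 8 alternatives, and the number at 10-fold or more stayed at 10 under 4. No paired analysis was possible because no column of the pooled list belongs to a single library. For the same reason no library could be left out, and the depth of the pool limits which weak intervals were called.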
